A study of Capra hircus with 29 samples.

Results

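The genes described are the mitochondrial carriers of the SLC25 family, taken as every row of the oocyte expression table whose gene symbol is SLC25A followed by a number. The rule found 52 of the 21343 rows of the table, with 45 different symbols. It missed family genes that carry other names, such as the uncoupling proteins UCP1, UCP2 and UCP3, which are given separately.

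SLC25 carriers are small proteins of the inner mitochondrial membrane that exchange metabolites between the cytosol and the mitochondrial matrix. The ADP/ATP carriers export the ATP made by oxidative phosphorylation, the phosphate carrier imports its phosphate, and other members move amino acids, keto acids, nucleotides, metals and cofactors such as S-adenosylmethionine, NAD and coenzyme A. The oocyte is known for its very large stock of mitochondria, on which meiosis, fertilization and the early embryo draw, since granulosa cells rather than the oocyte carry out most of the glycolysis of the follicle.

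RNA was sequenced from 29 samples of Ji'ning grey goat oocytes, a Chinese breed of domestic goat, and the labels name no genetic change or agent. Goats of a high fertility population (litters of more than 3 kids per the labels) and of a low fertility population (fewer than 2 kids), limits that the study words differently in its methods and results, gave oocytes from large, medium and small follicles, which made the groups HLO, HMO and HSO and the groups LLO, LMO and LSO. The first letter stands for the fertility population and the second for the follicle size, and each group had 5 samples except HSO, which had 4, numbered 1, 3, 4 and 5. Each sample pooled a few oocytes. For the high fertility population, the methods of the study state that the oocytes of each follicle size were put together and then divided into samples, so the samples of such a group are portions of 1 pool and not separate animals. The pooling is not stated for the low fertility population, whose samples are listed in the same way, and the goats behind a sample are not recorded. The p-values below therefore measure the spread between samples, which may be technical, and not that between goats.

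Values are FPKM (fragments mapped to a gene, scaled to the length of its exons and to all mapped fragments), so levels of different genes can be set side by side per length, and the depth in reads is not known from the table. The summed FPKM was between 222697 (LMO replicate 2) and 490048, and between 6646 and 8689 genes were above 0.5 FPKM in a sample. Of the 10 oocyte marker genes listed, 9 symbols were in the table, on 10 rows. Of these rows, 7 were above 0.5 FPKM in every sample, ZP3, BTG4, GDF9 and BMP15 among them, and 1 was listed at 0 in every sample. Summed oocyte marker levels were 1472 to 11031 FPKM. All granulosa markers together reached 0.114 to 7.38 FPKM, with AMH, HSD17B1 and AMHR2 listed at 0 in every sample, while leukocyte markers stayed at or below 0.672 FPKM and stroma and theca markers, mostly DCN, reached 2.91 to 17.4 FPKM. LLO replicates 2 and 5 stood apart from the other samples on the second principal component. In such pools, a smaller share of oocyte RNA in the sample and less RNA of a gene in each oocyte cannot be told apart from FPKM.

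Of the 52 rows, 9 were above 0.5 FPKM in all 29 samples, 23 in some of them and 20 in none, and 25 had a mean above 0.5 FPKM. The rows of SLC25A2, SLC25A34 and SLC25A45 were listed at 0 in every sample, as were 1 row each of SLC25A30 and SLC25A36, whereas 4171 rows of the whole table were listed at 0 throughout. The symbols SLC25A5, SLC25A16, SLC25A30, SLC25A36 and SLC25A39 stand on 12 rows in all. Reads of such copies may have been split between rows, so their levels are uncertain, and the row with the highest mean is given below for each. Summed over all rows, the family made up 267 ± 145 FPKM (SD, n = 29), or 0.0639 ± 0.0325% of the summed FPKM of the table.

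SLC25A26, the carrier that brings S-adenosylmethionine into mitochondria, was the most abundant member. Its mean was 143 ± 111 FPKM (SD, n = 29), above the mean of 97.8% of the rows of the table, and it made up 47.1 ± 17.5% of the summed family level. In HLO replicates 1 to 5 its level was 245, 36.8, 73.0, 23.3 and 298 FPKM, and in LLO replicates 1 to 5 it was 254, 49.5, 49.1, 198 and 186 FPKM. HMO replicates 1 to 5 had 277, 55.1, 58.9, 90.3 and 216 FPKM, against 137, 8.23, 57.1, 199 and 280 FPKM in LMO. HSO replicates 1, 3, 4 and 5 had 226, 45.2, 91.7 and 416 FPKM, and LSO replicates 1 to 5 had 34.3, 22.7, 31.1, 239 and 255 FPKM. Every group therefore held both low and high samples, and the ranges of all 6 groups overlapped. SLC25A26 was the highest member in 25 of the 29 samples, and SLC25A4 was the highest in the other 4, namely HLO replicate 4, LMO replicate 2 and LSO replicates 1 and 2.

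**Figure D1:**
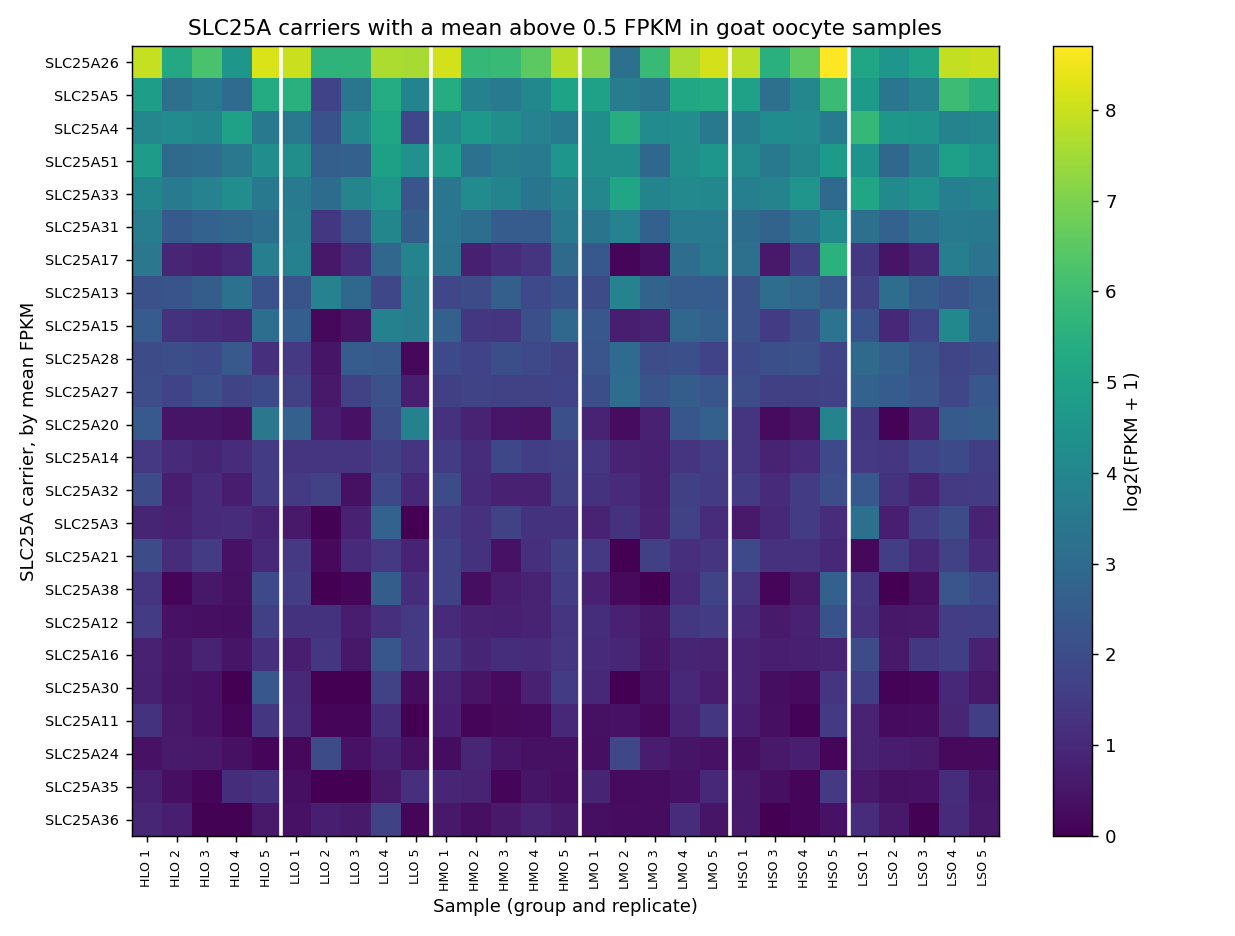
Heat map of log2(FPKM + 1) for 24 of the 25 SLC25A rows with a mean above 0.5 FPKM, 1 row per carrier by falling mean and 1 column per oocyte sample, with white lines between the 6 groups. SLC25A26 is the brightest row in 25 of 29 samples, and dark and bright columns for SLC25A26, SLC25A5, SLC25A17 and SLC25A20 recur inside every group.

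The ADP/ATP carriers came next. SLC25A5, which encodes the carrier of dividing and growing cells (ANT2), had a mean of 24.7 ± 16.6 FPKM (SD, n = 29), and SLC25A4, the form of heart and muscle (ANT1), had 18.3 ± 10.7 FPKM (SD, n = 29). SLC25A31, whose product ANT4 is best known from male germ cells, had 8.41 ± 3.57 FPKM (SD, n = 29), while SLC25A6 (ANT3) had 0.339 ± 0.369 FPKM and was listed at 0 in 8 samples. SLC25A31 was above SLC25A6 in 29 of 29 samples, with a median ratio of 21 over the 21 samples in which SLC25A6 was above 0. Together the 4 carriers reached 51.8 ± 21.6 FPKM (SD, n = 29).

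SLC25A5 and SLC25A4 exchanged places from sample to sample. SLC25A5 was the higher of this pair in 15 samples and SLC25A4 in 14, with ratios of SLC25A5 to SLC25A4 from 0.233 to 5.37 (median 1.15). The share of SLC25A5 in the summed ADP/ATP carriers ran from 16.2 to 71.5% and that of SLC25A4 from 12.1 to 69.4%, whereas SLC25A31 kept to 9.31 to 22.6%.

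**Figure D2:**
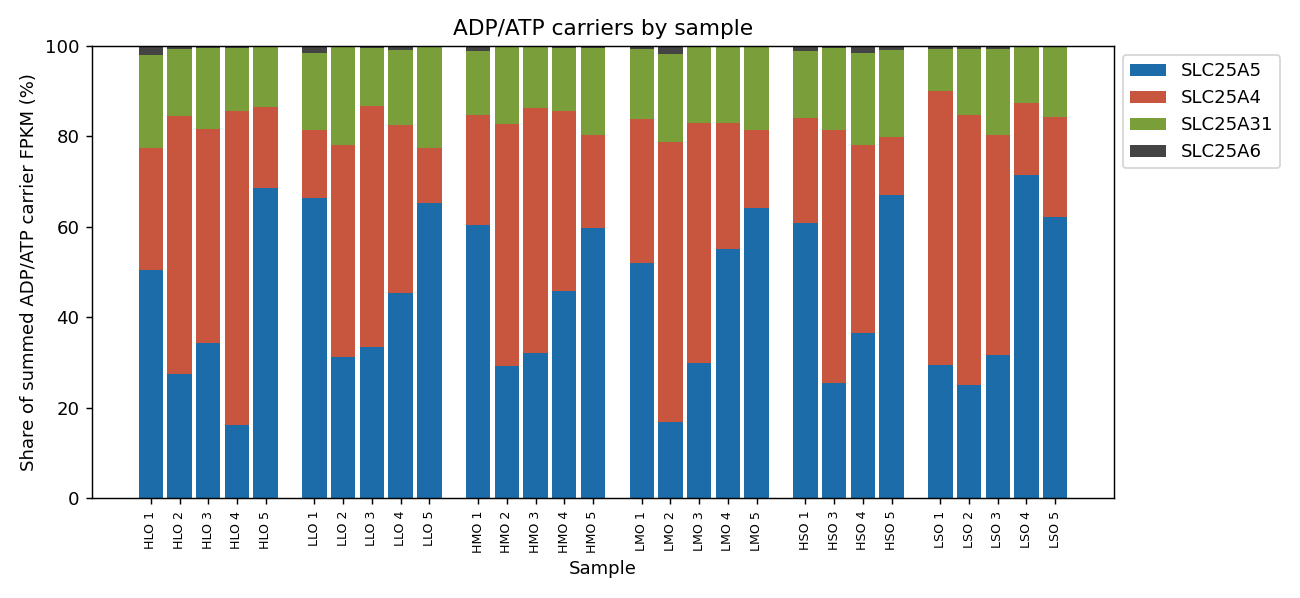
Stacked bars of the share (%) of SLC25A5, SLC25A4, SLC25A31 and SLC25A6 in their summed FPKM, 1 bar per sample, grouped as HLO, LLO, HMO, LMO, HSO and LSO. The share of SLC25A5 runs from 16.2 to 71.5% and that of SLC25A4 from 12.1 to 69.4%, while SLC25A31 lies between 9.31 and 22.6%.

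By sample, SLC25A5 was at 28.5, 8.37, 10.7, 7.19 and 39.9 FPKM in HLO replicates 1 to 5 and at 45.2, 2.40, 9.62, 40.5 and 14.3 FPKM in LLO. SLC25A5 was at 40.7, 13.2, 10.9, 15.8 and 32.4 FPKM in HMO and at 30.9, 11.6, 9.63, 35.9 and 39.3 FPKM in LMO. For SLC25A5 the 4 HSO samples gave 30.5, 8.20, 15.2 and 59.7 FPKM and the 5 LSO samples 26, 9.68, 13.6, 62.2 and 42.9 FPKM. The low and high samples of SLC25A5 were largely those of SLC25A26, and the groups overlapped.

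The second ADP/ATP carrier, SLC25A4, was at 15.2, 17.4, 14.8, 30.9 and 10.5 FPKM in HLO replicates 1 to 5 and at 10.2, 3.60, 15.4, 33.3 and 2.66 FPKM in LLO. SLC25A4 was at 16.4, 24.1, 18.7, 13.7 and 11.2 FPKM in HMO and at 19, 42.4, 17.2, 18.1 and 10.5 FPKM in LMO. Among small follicles, SLC25A4 was at 11.6, 18, 17.4 and 11.4 FPKM in HSO and at 54.4, 23.2, 21.7, 13.8 and 15.3 FPKM in LSO. The highest samples were LSO replicate 1 and LMO replicate 2, and LMO replicate 2 was the lowest sample of all for SLC25A26. The groups overlapped here too.

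Carriers of cofactors and nucleotides followed. SLC25A51, the mitochondrial NAD carrier, had 16.4 ± 7.66 FPKM (SD, n = 29; lowest 5.15, median 18.1, highest 29.6). SLC25A33, a pyrimidine nucleotide carrier, had 15.1 ± 6.61 FPKM (lowest 3.87, median 14.2, highest 33.6) and was above the second pyrimidine nucleotide carrier SLC25A36 in 29 of 29 samples. SLC25A17, which sits in the peroxisome rather than the mitochondrion and carries coenzyme A, NAD and FAD, had 6.30 ± 8.92 FPKM (lowest 0.0825, median 2.03, highest 45.6). Its SD was above its mean, and the highest value came from HSO replicate 5. Lower in the same role were SLC25A32, a folate and FAD carrier, with a mean of 1.65 FPKM and SLC25A16, a putative coenzyme A carrier, with 1.15 FPKM.

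Amino acid carriers were led by SLC25A13. This aspartate-glutamate carrier of the malate-aspartate shuttle (citrin) had 5.42 ± 3.06 FPKM (SD, n = 29; lowest 2.32, median 4.73, highest 13.6), and it was above its paralogue SLC25A12 (aralar) in 29 of 29 samples, with a median ratio of 3.51. The ornithine carrier SLC25A15, which serves the urea cycle in liver, had 4.41 ± 3.97 FPKM (lowest 0.14, median 3.51, highest 15.9), while the second ornithine carrier SLC25A2 was listed at 0. SLC25A20, the carnitine-acylcarnitine carrier needed for fatty acid oxidation, had 2.88 ± 3.76 FPKM. The glycine carrier of haem synthesis SLC25A38 had a mean of 1.36 FPKM, and the glutamate carrier SLC25A22 of 0.286 FPKM.

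Of the iron carriers, SLC25A28 (mitoferrin-2) had 3.22 ± 1.58 FPKM (SD, n = 29; lowest 0.141, median 3.11, highest 7.17). It was above SLC25A37, the mitoferrin of red cell precursors, in 28 of 29 samples, and SLC25A37 had a mean of 0.0839 FPKM and passed 0.5 FPKM in none. The glutathione carrier SLC25A39 reached 0.333 FPKM on the highest of its rows. SLC25A40 was not found by symbol, but a row described as member 40 of the family was listed at 0 in 28 of 29 samples.

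Of the uncoupling-related carriers, SLC25A27 (UCP4), best known from brain, had 3.09 ± 1.45 FPKM (SD, n = 29), SLC25A14 (UCP5) had 1.67 ± 0.596 FPKM and SLC25A30 had 0.769 ± 0.901 FPKM. SLC25A27 was above SLC25A14 in 24 of 29 samples. The classical uncoupling proteins were lower, since UCP1 had a mean of 0.0707 FPKM, UCP2 of 0.0881 FPKM and UCP3 of 0.00103 FPKM.

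SLC25A3, the phosphate carrier that ATP synthesis depends on, had 1.57 ± 1.67 FPKM (SD, n = 29), below the 10 most abundant members. The ATP-Mg/phosphate carrier SLC25A24 had 0.571 FPKM and was above SLC25A23, SLC25A25 and SLC25A41 of the same role in 29 of 29 samples each. Among the di- and tricarboxylate carriers, the oxodicarboxylate carrier SLC25A21 had a mean of 1.38 FPKM, the oxoglutarate carrier SLC25A11 of 0.643 FPKM, the citrate carrier SLC25A1 of 0.236 FPKM and the dicarboxylate carrier SLC25A10 of 0.0284 FPKM. The orphan members SLC25A43, SLC25A46 and SLC25A53 had means of 0.147, 0.068 and 0.0491 FPKM, and SLC25A35 had 0.561 FPKM. The branched-chain amino acid carrier SLC25A44 had a mean of 0.297 FPKM, and SLC25A29, SLC25A42, SLC25A47 and SLC25A48 had means of at most 0.0726 FPKM.

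**Figure D3:**
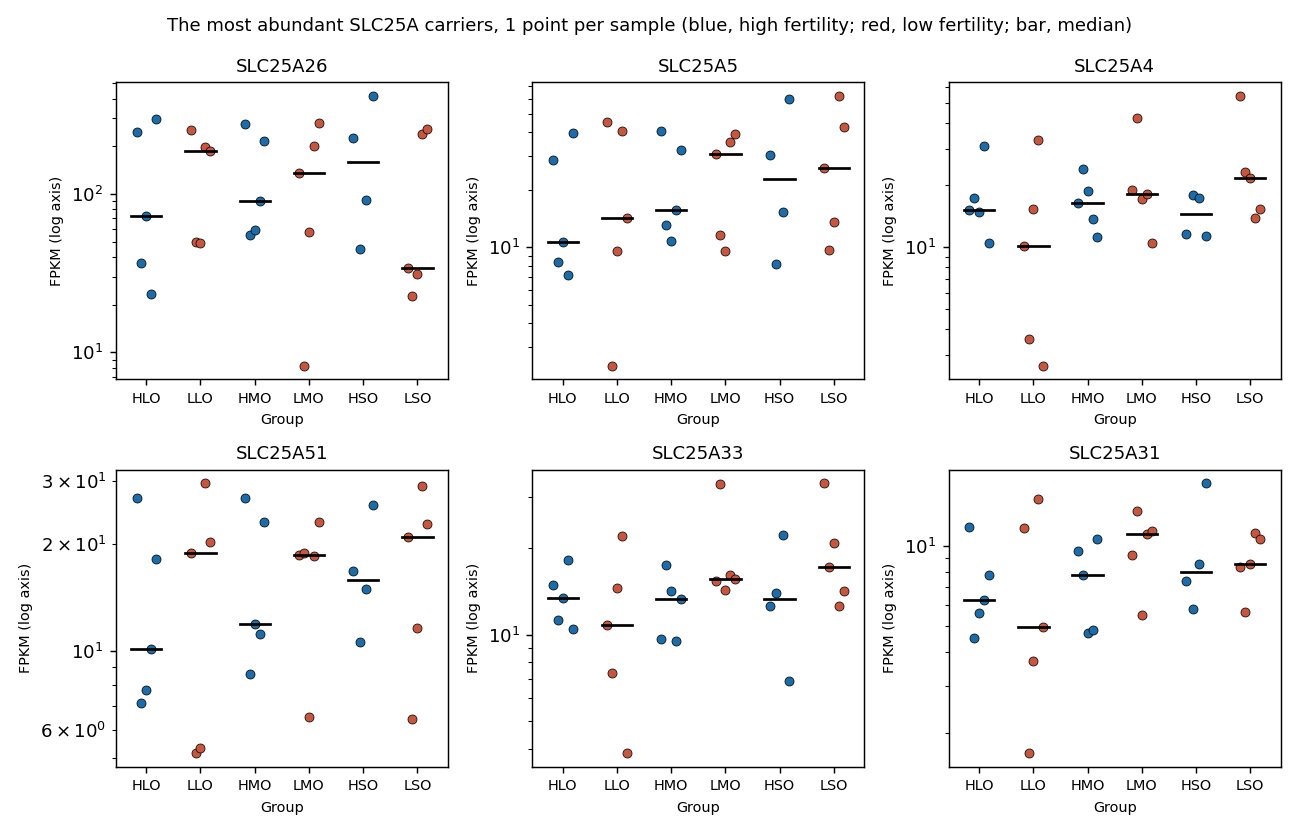
FPKM on a log axis of the 6 most abundant carriers, 1 point per sample (blue, high fertility; red, low fertility), with a bar at the median of each group. In SLC25A26 each group spans low and high samples, from 8.23 FPKM in LMO to 416 FPKM in HSO, and the high and low fertility groups overlap in all 6 panels.

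Most of the variation of the members lay inside the groups. Over the 25 members with a mean above 0.5 FPKM, the 6 group means took up a median of 7.51% of the variance of log2(FPKM + 1), and less than 20% in 18 of the 25. For SLC25A26 this share was 5.96%, with a within-group SD of 1.52 on the log2 scale, and for SLC25A5 it was 6.75%. SLC25A27 had the highest share, 57.7%, with a within-group SD of 0.37, followed by SLC25A14 with 30.1% and SLC25A16 with 27.4%. The means of 6 small groups take up part of the variance even where no group differs. The shares over all genes are not given here, so those of the members, and the count under 20%, are not read as particular to the carriers.

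Within the groups, some members were high in the samples in which SLC25A26 was high and others in those in which it was low. Over the 56 pairs of samples of the same group, the sample with more SLC25A26 also had more SLC25A5 in 52 pairs, more SLC25A38 in 51, more SLC25A20 in 50, more SLC25A17 in 49 and more SLC25A15 and SLC25A12 in 48 each. It had more SLC25A4 in 13 pairs, more SLC25A28 and SLC25A13 in 15 each and more SLC25A33 in 20. In turn, the sample with more SLC25A4 had more SLC25A28 in 50 pairs and more SLC25A33 in 47, but more SLC25A5 in 15. SLC25A13 followed SLC25A4 in 30 pairs and went against it in 26. SLC25A27 took the order of SLC25A26 in 29 pairs and that of SLC25A4 in 32. These counts describe the samples and carry no test, since the pairs share samples and all genes of a sample share a library.

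Measures of the whole sample moved with SLC25A26 as well. Its order was that of the first principal component of all genes (39% of the variance) in 54 of 56 pairs, of the summed oocyte markers in 49 and of the number of genes above 0.5 FPKM in 48. The order matched that of the summed leukocyte markers in 44 pairs, stroma and theca markers in 41, granulosa markers in 36 and mitochondrially encoded genes in 25. Their part in the order of the carriers was not tested.

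The level of several carriers also went with the replicate number of the labels across the groups. In the 5 samples numbered 2 and the 6 numbered 3, SLC25A26 reached 8.23 to 55.1 and 31.1 to 73.0 FPKM, in the 6 samples numbered 5 it reached 186 to 416 FPKM, and those numbered 1 and 4 spanned 34.3 to 277 and 23.3 to 239 FPKM. SLC25A5 was at 2.40 to 13.2 FPKM in the samples numbered 2 and 8.20 to 13.6 FPKM in those numbered 3, below the 26 to 45.2 FPKM of those numbered 1 and the 14.3 to 59.7 FPKM of those numbered 5. SLC25A17 was at 0.0825 to 0.898 and 0.284 to 1.23 FPKM in the samples numbered 2 and 3, below the 1.64 to 13.2 and 6.98 to 45.6 FPKM of those numbered 1 and 5. SLC25A4 overlapped between all numbers, with 3.60 to 42.4 FPKM at number 2 and 2.66 to 15.3 FPKM at number 5. Genes above 0.5 FPKM went the same way, with 6646 to 7527 at number 2, 6806 to 7513 at number 3, 8047 to 8450 at number 1 and 7699 to 8452 at number 5. The 6 samples numbered 4 lay on both sides, with 7251 to 8689 such genes, 7.19 to 62.2 FPKM of SLC25A5 and 1.02 to 12.3 FPKM of SLC25A17. The labels do not say that a number marks a shared goat, day or batch, and the split was noticed in these data and not tested.

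To ask whether carriers differed between the fertility populations, oocytes of the same follicle size were compared by limma's moderated test on log2(FPKM + 1), a scale that understates the change of low genes, and p-values were adjusted by Benjamini-Hochberg over all genes tested. Fold changes are given as high over low fertility. No member passed an adjusted p of 0.05 in large, medium or small follicles, in which 0, 0.0715 and 0.0119% of all genes tested passed.

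In large follicles, 0 of the 25 members tested had an unadjusted p under 0.05 in HLO against LLO by limma, against 4.14% of the 8328 genes tested, and the exact Wilcoxon test also called 0. The lowest adjusted p was 0.828. The median log2 fold change was -0.09 over the members and -0.09 over all genes tested, and 11 of the 25 members were above 0. Differences ran from -0.53 to 0.80, the latter for SLC25A4. SLC25A26 differed by -0.45 ± 0.79 (SE) and SLC25A5 by 0.01 ± 0.73 on the log2 scale, and no member had groups without overlap, against 0.432% of all genes.

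Medium follicles gave 1 member of the 24 tested with an unadjusted p under 0.05 in HMO against LMO, against 8.67% of the 8390 genes tested. It was SLC25A27, which was lower in HMO, as were 3.58% of all genes at that p. The median log2 fold change was -0.00 over the members and -0.07 over all genes, and 12 of the 24 members were above 0. SLC25A26 differed by 0.43 ± 0.84 (SE), SLC25A5 by -0.14 ± 0.50 and SLC25A4 by -0.23 ± 0.38 on the log2 scale. SLC25A27 was also the only tested member whose groups did not overlap, where 1.7% of all genes had such groups and 0.858% had them with lower values in HMO.

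Small follicles gave 1 member of the 25 tested with an unadjusted p under 0.05 in HSO against LSO, against 4.41% of the 8376 genes tested, and this was again SLC25A27, lower in HSO, as were 2.36% of all genes at that p. Median log2 fold changes were 0.00 over the members and -0.01 over all genes, with 13 of the 25 members above 0. SLC25A26 had the highest log2 fold change, 1.02 ± 0.88 (SE), which was within the spread between samples, and SLC25A4 one of the lowest, -0.63 ± 0.42. No member had groups without overlap, against 2.05% of all genes.

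**Figure D4:**
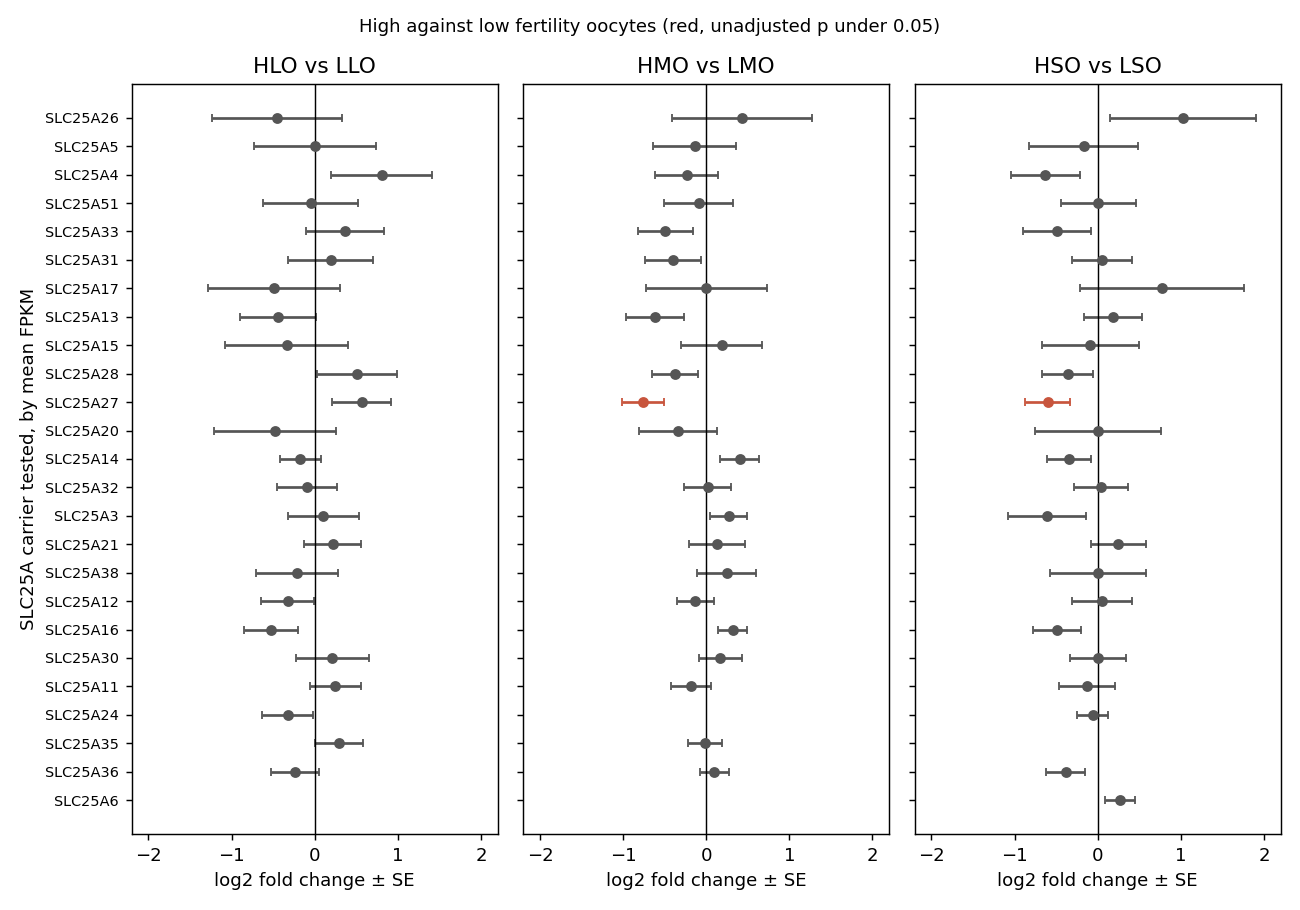
Log2 fold change with SE of the SLC25A carriers tested and reported, high over low fertility, in large (HLO vs LLO), medium (HMO vs LMO) and small follicles (HSO vs LSO), ordered by mean FPKM. Only SLC25A27 in medium and small follicles has an unadjusted p under 0.05 (red), at -0.76 and -0.60, and no carrier has an adjusted p under 0.05.

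SLC25A27 was at 2.10, 2.49, 2.24, 2.29 and 2.35 FPKM in HMO replicates 1 to 5 and at 3.27, 7.68, 3.85, 4.94 and 3.98 FPKM in LMO. Every LMO sample was above every HMO sample, and the means were 2.29 ± 0.141 and 4.74 ± 1.75 FPKM (SD, n = 5 each). The log2 fold change was -0.76 ± 0.25 (SE) with an unadjusted p of 0.0106 and an adjusted p of 0.358 by limma. Leaving out LMO replicate 2, the highest sample and the one with the lowest summed FPKM, gave -0.60 with an unadjusted p of 0.0130 by limma.

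In small follicles, SLC25A27 was at 3.20, 2.15, 2.16 and 2.18 FPKM in HSO replicates 1, 3, 4 and 5 and at 5.74, 4.85, 3.86, 2.65 and 4.18 FPKM in LSO. HSO replicate 1 was above LSO replicate 4, and the other samples of the groups did not overlap. The log2 fold change was -0.60 ± 0.27 (SE) with an unadjusted p of 0.0472 and an adjusted p of 0.880 by limma, and it no longer had an unadjusted p under 0.05 in 7 of the 9 fits that each left out 1 sample (all but those without HSO replicate 1 or LSO replicate 4), with unadjusted p-values from 0.0258 to 0.106.

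Large follicles showed no such order for SLC25A27, at 3.19, 2.35, 3.40, 2.46 and 2.85 FPKM in HLO replicates 1 to 5 and 2.21, 0.504, 2.21, 3.49 and 0.654 FPKM in LLO. The difference was 0.57 ± 0.35 (SE) on the log2 scale with an unadjusted p of 0.131 by limma. The lowest samples were LLO replicates 2 and 5, which stood apart on the second principal component.

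**Figure D5:**
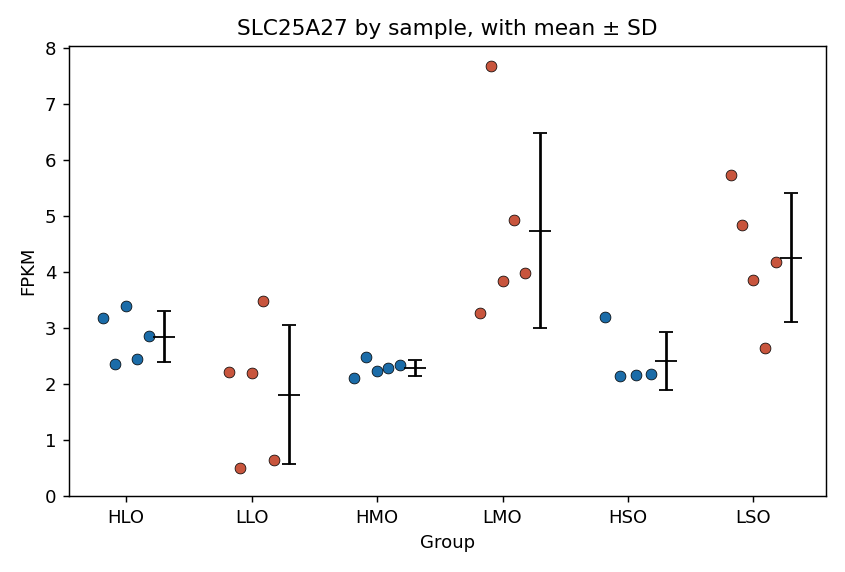
FPKM of SLC25A27 (UCP4) in each sample (blue, high fertility; red, low fertility), with the mean and SD of each group beside the points. All 5 LMO samples lie above the 5 HMO samples (means 4.74 and 2.29 FPKM), while LLO lies lowest, at a mean of 1.81 FPKM.

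Whether the difference between populations depended on follicle size was asked by the interaction of both in a fit over all 29 samples. SLC25A27 had an unadjusted p of 0.00240 and an adjusted p of 0.256 by limma's moderated F-test, the only 1 of 29 members tested with an unadjusted p under 0.05, against 7.89% of the 9692 genes tested. Without LLO replicates 2 and 5 its unadjusted p was 0.0348 and its adjusted p 0.591. The 6 group means of SLC25A27 ran from 1.81 ± 1.24 FPKM in LLO over 2.29 ± 0.141 in HMO, 2.42 ± 0.516 in HSO and 2.85 ± 0.452 in HLO to 4.26 ± 1.15 in LSO and 4.74 ± 1.75 FPKM in LMO. Neighbours in this order differed by less than the larger SD of the pair, with the exception of HLO and LSO.

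Marker sums of the same samples are given beside SLC25A27, and all of their ranges overlapped between the populations. In medium follicles, summed mitochondrially encoded genes were at 98.8 to 353 FPKM in HMO and 345 to 4611 FPKM in LMO. Their means were 233 ± 110 and 1656 ± 1729 FPKM (SD, n = 5 each). These ranges overlapped only in that HMO replicate 2 (353 FPKM) lay above LMO replicate 4 (345 FPKM). Granulosa markers were at 0.321 to 0.775 FPKM in HMO and 0.201 to 7.38 FPKM in LMO, with means of 0.472 and 2.08 FPKM. Stroma and theca markers were at 5.55 to 15.7 and 6.13 to 16.1 FPKM, and leukocyte markers at 0.154 to 0.646 and 0 to 0.672 FPKM. In small follicles, mitochondrially encoded genes were at 424 to 5919 FPKM in HSO and 122 to 4209 FPKM in LSO, and granulosa markers at 0.233 to 1.07 and 0.615 to 6.63 FPKM, with means of 0.568 and 2.33 FPKM. Stroma and theca markers were at 5.98 to 16.8 and 2.91 to 12.6 FPKM, with means of 11.9 and 7.21 FPKM, and leukocyte markers at 0.198 to 0.425 and 0 to 0.493 FPKM. The part of these measures in the differences of SLC25A27 was not tested.

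Over all follicle sizes, with size as a factor, 0 of 29 members had an unadjusted p under 0.05 between high and low fertility by limma, against 9.99% of the 9692 genes tested, and none had an adjusted p under 0.05, against 0.0103% of all genes. Without LLO replicates 2 and 5, 2 members had an unadjusted p under 0.05 by limma, SLC25A27 at -0.46 (adjusted p 0.707) and SLC25A33 at -0.40 (adjusted p 0.71). The share of all genes in that fit is not given here, so the count is not read as a result about the carriers. The samples left out were also the lowest of all for SLC25A27, at 0.504 and 0.654 FPKM. In the fit with all samples, the median log2 fold change was -0.03 over the members and -0.04 over all genes. SLC25A26 differed by 0.31 ± 0.52 (SE) and SLC25A27 by -0.25 ± 0.19 on the log2 scale.

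Across the 3 follicle sizes, with population as a factor, 0 of 29 members had an unadjusted p under 0.05 by limma's F-test, against 1.66% of all genes, and no gene of the table had an adjusted p under 0.05. The lowest unadjusted p was 0.0966, that of SLC25A27, with an adjusted p of 1 by limma.

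The genes that work with the carriers are those for their import into the inner membrane, other mitochondrial transporters and family genes with other names, 38 rows in all. Of the 26 that could be tested, 0 had an unadjusted p under 0.05 in each comparison within a follicle size by limma, with median log2 fold changes of 0.13, 0.15 and 0.05 in large, medium and small follicles. Over all sizes, 1 of the 26 did: TIMM13, a small chaperone of the intermembrane space, differed by 0.80 ± 0.37 (SE) with an unadjusted p of 0.0364 and an adjusted p of 0.476 by limma. At that unadjusted p, 3.39% of all genes were higher in high fertility oocytes. None passed an unadjusted p of 0.05 for follicle size or for the interaction.

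Several of these partners were more abundant than most carriers. The chaperones TIMM8B, TIMM9 and TIMM13 had means of 562 ± 274, 266 ± 158 and 186 ± 75.2 FPKM (SD, n = 29). The outer membrane receptors TOMM20 and TOMM22 had 60.4 ± 20.5 and 57.4 ± 49.5 FPKM, TOMM70, the receptor known to bind carrier precursors, had 10.3 ± 5.82 FPKM, and the insertase subunit TIMM22 had 6.89 ± 6.57 FPKM. TOMM40, the channel of the outer membrane, was at 0.235 ± 0.168 FPKM. MTCH2, an outer membrane protein of the same family, had 40.3 ± 23.2 FPKM, and the serine transporter relative SFXN4 had 129 ± 110 FPKM, near the level of SLC25A26. The subunits of the pyruvate carrier, MPC1 and MPC2, had 12 ± 8.66 and 23.2 ± 9.34 FPKM, and the calcium uniporter MCU had 11.3 ± 3.23 FPKM.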

How the data were processed

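Polyadenylated RNA of 29 oocyte samples was sequenced on an Illumina machine. Reads that matched at a single place with few mismatches were used by the authors, duplicates were taken out with picard, and the FPKM table was deposited, calculated with Cufflinks and Ensembl genes. The aligner and genome build are not given in the sources used here, so no coordinates or sequences are printed. Column names were matched to the sample titles, which left 1 column of values without a sample, and it was not used. No pair of samples held identical values. The table holds no counts, so counting error could not be given, and a gene at 0 is called listed at 0.

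Members, roles and lists were chosen with earlier results of these data known. Genes above 0.5 FPKM in at least 4 samples of a fit were tested on log2(FPKM + 1) with limma (moderated, trended variance, two-sided), with Benjamini-Hochberg adjustment over all genes tested. By rule, the levels of the 10 members with the highest mean are given in full, with tests for up to 6 members per comparison with the smallest unadjusted p under 0.05, and other members are named by their mean. Fold changes of SLC25A26, SLC25A5 and SLC25A4 stand beside these as those of the 3 most abundant members. One member counts in the totals but is not reported here. The counts of paralogues, of sample pairs and of replicate numbers were chosen after the values were seen, as was leaving out LLO replicates 2 and 5. In simulated tables, where 200 genes carried a log2 change of 2, 53.0%, 81.5% and 64.0% of them passed after adjustment in HLO against LLO (8328 genes), HMO against LMO (8390 genes) and HSO against LSO (8376 genes). Of the unchanged genes, 8, 10 and 9 passed as well. The simulated noise was independent between genes, unlike that of real samples, and the change was larger than any member difference in these comparisons. The percentages therefore do not say how often differences of the size seen in the carriers would pass. The alternatives were a pseudocount of 0.1, limits of 0 or 1 FPKM in the filter, quantile normalization, median-of-ratios factors, a replicate block, array weights, 1 fit over all samples, Wilcoxon's exact test, and each sample left out in turn. Python 3.11.15 with numpy 2.4.6 and pandas 2.3.3, R 4.3.3 with limma 3.58.1 and matplotlib 3.10.9 were used.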

Additional observations from a re-analysis of the deposited data

Results flagged for a closer look

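Dixon's criterion was applied to 11 members and the family's share of the table in each of the 6 groups, 72 tests in all, and 7 values stood out from the rest of their group. Chance gives about 1 in 20 for normally distributed values, but FPKM was used untransformed and the tests share samples. The number of flags is therefore not set against chance. SLC25A4 was at 42.4 FPKM in LMO replicate 2, where the other samples had 10.5 to 19 FPKM, and at 54.4 FPKM in LSO replicate 1, where the others had 13.8 to 23.2 FPKM. SLC25A33 was at 33.5 FPKM in LMO replicate 2 against 14.3 to 16.2 FPKM, and SLC25A13 at 13.6 FPKM in the same sample against 2.97 to 5.76 FPKM. SLC25A13 was also high in HLO replicate 4, with 8.47 FPKM against 3.46 to 4.86 FPKM. SLC25A51 was low in LMO replicate 3, with 6.51 FPKM against 18.5 to 23 FPKM in the others. SLC25A27 was at 3.20 FPKM in HSO replicate 1, where the other 3 samples had 2.15 to 2.18 FPKM. LMO replicate 2 gave 3 of the 7 and had the lowest summed FPKM of all samples, 222697; the part of that in these values was not tested.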

How the results depend on the processing

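The direction of SLC25A27 reversed under no alternative in HMO against LMO and HSO against LSO, the comparisons in which it was checked. No member passed an adjusted p of 0.05 by limma except under array weights. Those gave 1 in HMO against LMO (SLC25A27, adjusted p 0.0414) and 2 over all sizes (SLC25A12, adjusted p 0.0473, and SLC25A20, adjusted p 0.0453). The share of all genes that passed under array weights is not given here, so these calls are not read as particular to the carriers. Array weights moved the median log2 fold change of all genes to -0.26, -0.32 and -0.16 in HLO against LLO, HMO against LMO and over all sizes. The counts that follow are given without the share of all genes in the same fit, so they are not read as results about the carriers. Members with an unadjusted p under 0.05 by limma numbered 3 in HLO against LLO, 7 in HMO against LMO, 10 over all sizes, 2 across sizes and 3 for the interaction under array weights. Without a filter they numbered 2 in HMO against LMO, 3 in HSO against LSO, 1 over all sizes and 3 for the interaction. Median-of-ratios factors gave 3, 0 and 3 in HMO against LMO, HSO against LSO and the interaction, quantile normalization 3 in HMO against LMO and 4 for the interaction, a pseudocount of 0.1 gave 2 for the interaction, and 1 fit over all samples 1 in HLO against LLO and 2 in HSO against LSO. Without LLO replicates 2 and 5, the count over all sizes was 2.

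With each sample left out in turn, the counts ran from 0 to 3 in HLO against LLO (3 without LLO replicate 4, among them SLC25A4 at 1.25 and SLC25A3 at 0.58; 1 without LLO replicate 3), 1 to 2 in HMO against LMO (2 without LMO replicate 1), 0 to 2 in HSO against LSO (2 without HSO replicate 3; 0 without HSO replicate 4 or 5 or LSO replicate 1 or 5), 0 to 1 over all sizes (1 without LLO replicate 2), 0 to 1 across sizes (1 without LLO replicate 4, SLC25A3) and 1 to 4 for the interaction (4 without LLO replicate 3). SLC25A27 kept an unadjusted p under 0.05 under all alternatives in HMO against LMO (-0.95 to -0.60) and for the interaction, where it was 0.000295 by limma's F-test without LLO replicate 4. Its adjusted p in HMO against LMO ran from 0.253 to 0.867 by limma with each sample left out. Under the other alternatives it ran from 0.0414 (limma with array weights) to 0.466 (Wilcoxon's exact test). For the interaction, the adjusted p by limma's F-test was 0.0744 to 0.487 with each sample left out and 0.0506 to 0.591 otherwise. In HSO against LSO, SLC25A27 did not keep an unadjusted p under 0.05 under array weights (-0.40), quantile normalization (-0.56), median-of-ratios factors (-0.56) or the replicate block (-0.56). The cause of these shifts was not tested. Shares of all genes in these fits are not given beside the counts, so the counts are not read as results about the carriers.

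The replicate numbers do not pair the samples by the labels. Deviations of same-numbered samples from their group means correlated over 0.1 in 10 of 14 pairs, from -0.48 to 0.71, and 7 of the 14 matched their own number best. A replicate block left the interaction with 4 members at an unadjusted p under 0.05, moved no other count by over 1.5 times, and called no member after adjustment. In HSO against LSO the member under 0.05 changed from SLC25A27 to SLC25A16 (-0.66, unadjusted p 0.0320 by limma). Shares of all genes under the block are not given here. FPKM without counts limit what can be said of members near 0.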
